A study of Mus musculus with 4 samples.

Results

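The genes described here are 10 cytokine genes of lymphocytes, Ifng, Tnf, Lta, Ltb, Il10, Il4, Il13, Il5, Il17a and Csf2, taken by name from the 31053 features counted in 4 single-cell RNA libraries of mouse immune cells. All 10 were found. For each gene the unique molecular identifiers (UMIs, one per captured transcript), the cell barcodes holding at least 1 UMI, and the share of UMIs in the 5 barcodes with most were taken in 6 classes of barcodes, each set by a few marker genes. The 6 classes, called gates below, were CD4-only T, CD8-only T, natural killer (NK), gamma-delta T (a Trdc UMI with a CD3 UMI), group 2 innate lymphoid (ILC2) and B barcodes.

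Both pancreas libraries held CD45+ cells sorted by flow cytometry from pre-diabetic females aged 12 weeks, with cells of 4 mice pooled in each. Both lymph node libraries held CD3 T cells taken by magnetic separation from the pancreatic lymph nodes of pre-diabetic females aged 8 weeks, with 5 mice pooled in each. The control genotype was Ocabfl/fl and the other was Ocabfl/fl.CD4-Cre, so all 4 groups carried floxed Ocab alleles and only the second carried Cre, driven by the Cd4 promoter. That promoter is active in developing T cells of both the CD4 and the CD8 lineage, so Cre can act in both. Ocab is an older name of Pou2af1, a coactivator that works with the octamer-binding proteins Oct1 and Oct2. With 1 library per group there was no replicate, and mice within a library could not be told apart. No test between genotypes was made, and all intervals are 95% and cover counting error only.

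Interferon gamma (Ifng) and tumour necrosis factor (Tnf) are made by type 1 helper, cytotoxic T and NK cells, and both act on the insulin-producing beta cells in autoimmune diabetes. Lymphotoxin alpha (Lta) and beta (Ltb) form membrane complexes that organise lymphoid tissue, while interleukin-10 (Il10) restrains inflammation. Il4, Il13 and Il5 encode the type 2 cytokines of helper cells and ILC2, Il17a the signature cytokine of type 17 cells, and Csf2 the growth factor GM-CSF.

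The members lie in a few clusters of the mouse genome (GRCm38, GENCODE M21). Ltb, Tnf and Lta are neighbours within 10.9 kb of chromosome 17, and Il4, Il13, Il5 and Csf2 lie within 647 kb of chromosome 11. Ifng is on chromosome 10, at 118441046 to 118445892 on the forward strand, and Il10 and Il17a are both on chromosome 1. Because the study deletes a partner of octamer-binding proteins, the 250 bases upstream of each start in the RefSeq promoter table (GRCm38.p6, 10 windows of 9 members) were searched on both strands for the octamer ATGCAAAT and for its first 7 letters, ATGCAAA. The full octamer was in 526 of all 32851 windows and in none of the 10 windows of members. The 7 letters were in 4.12% of all windows and in 2 of the 10, those of Ifng and Il17a. A stretch of the NF-kappa-B motif, GGGACTTTC, was in 0.289% of windows and, among members, in that of Ltb. The core of NFAT sites, GGAAA, was in 55.6% of windows and in those of 8 members, and it overlaps the match in the Ltb window. The AP-1 motif TGACTCA was in 4.46% of windows and in none of a member. The 3 windows below are printed because they hold the rarer letters, 5′ to 3′ on the forward strand, with the match in capitals. A match of letters is a description and not a binding site. The Ifng window is chr10:118440796-118441045, with the match starting 138 bases before the RefSeq start. The Il17a window is chr1:20730655-20730904, with the match, on the other strand, starting 196 bases before it. The Ltb window is chr17:35194257-35194438, with the match, also on the other strand, starting 86 bases before the RefSeq start; it is printed up to the start in GENCODE, which lies further upstream.
Ifng: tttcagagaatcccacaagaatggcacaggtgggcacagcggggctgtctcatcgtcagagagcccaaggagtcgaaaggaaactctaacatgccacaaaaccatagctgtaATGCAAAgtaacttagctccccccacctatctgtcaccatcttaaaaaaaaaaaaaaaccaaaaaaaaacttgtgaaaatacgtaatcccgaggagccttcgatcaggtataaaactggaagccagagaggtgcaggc
Il17a: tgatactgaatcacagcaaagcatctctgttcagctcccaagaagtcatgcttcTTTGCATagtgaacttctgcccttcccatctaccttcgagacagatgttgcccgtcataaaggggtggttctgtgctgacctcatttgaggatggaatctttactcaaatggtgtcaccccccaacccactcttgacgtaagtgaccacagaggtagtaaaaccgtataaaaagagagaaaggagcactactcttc
Ltb: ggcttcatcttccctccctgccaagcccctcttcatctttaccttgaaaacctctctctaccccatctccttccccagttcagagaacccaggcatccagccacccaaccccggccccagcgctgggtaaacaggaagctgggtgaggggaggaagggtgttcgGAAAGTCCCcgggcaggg

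The 4 libraries listed 3059 to 6963 barcodes and 14851217 to 32798133 UMIs, and 2847 to 6255 barcodes were kept, with medians of 3615 to 4629 UMIs. Pairs of libraries shared 21 to 70 barcode sequences, at most 1.31% of the smaller library. The targeted gene, Pou2af1, was at 4.86 UMIs per 1000000 UMIs of the same barcodes (CPM) over all pancreas barcodes with CD3 in the control library (47 UMIs) and at 0.760 in the CD4-Cre library (13 UMIs). In the lymph node it was at 5.16 (71 UMIs) against 0.159 (4 UMIs), while pancreas B barcodes, in which the Cd4 promoter should be silent, held 225 and 252 CPM. In the CD8-only gate it was at 3.16 and 1.26 CPM in the pancreas, on 6 and 4 UMIs. The gamma-delta label did not hold for the whole Trdc gate of the pancreas. Of its barcodes, 61.7% in the control and 62.5% in the CD4-Cre library also held Ncr1, an NK-cell receptor gene, and in those barcodes Cd163l1 and Blk were at 0, so the gate is called Trdc+ below and is also read without Ncr1. Lymph node values are given for the CD4-only, CD8-only and Trdc+ gates, since the NK, ILC2 and B gates of its CD4-Cre library held at most 2 barcodes.

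Ifng was lower in the pancreas CD4-Cre library than in the control library in both main T-cell gates, by an amount larger than counting error but under 2-fold. In CD4-only barcodes it stood at 40.8 CPM in the control library (34.4 to 48.1; 143 UMIs in 60 of 886 barcodes) and at 22.3 in the CD4-Cre library (19.1 to 25.8; 174 UMIs in 90 of 2008). In CD8-only barcodes it was at 96.5 CPM (83.0 to 112; 183 UMIs in 102 of 410) and at 67.9 (59.1 to 77.5; 216 UMIs in 106 of 638). The control level was the higher one in both gates and the counting intervals did not overlap. The log2 ratio (CD4-Cre to control) was -0.88 in CD4-only barcodes (-1.20 to -0.55) and -0.51 in CD8-only barcodes (-0.80 to -0.22). The medians over all genes tested in these gates were 0.03 and -0.01.

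Few barcodes held much Ifng. In the CD4-only gate, 35 of the 60 positive control barcodes and 59 of the 90 positive CD4-Cre barcodes held a single UMI, and the highest barcode held 13 in each library. The 5 barcodes with most held 31.5% and 26.4% of the gate's UMIs. With those 5 left out of each library the log2 ratio was -0.79, so the lower level was not confined to them. UMIs of one barcode are not independent of each other, which makes the counting intervals too narrow for a gene carried by few barcodes.

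**Figure D1:**
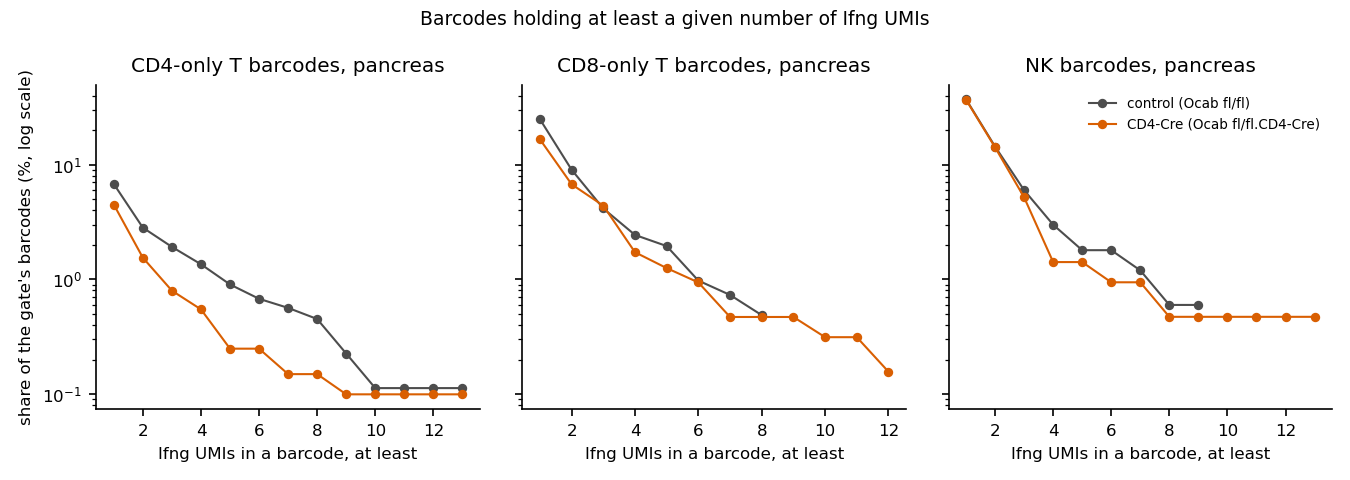
Share of barcodes (percent, log axis) holding at least the number of Ifng UMIs on the x axis, in CD4-only, CD8-only and NK barcodes of the control and CD4-Cre pancreas libraries. At 1 UMI the CD4-only curves start at 6.77% and 4.48%, the CD8-only curves at 24.9% and 16.6%, and the NK curves at 37.1% and 36.8%.

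The share of barcodes with an Ifng UMI gave the same order. Without correction for depth it was 6.77% against 4.48% in CD4-only and 24.9% against 16.6% in CD8-only barcodes, control first. After each barcode was thinned to 1000 UMIs it was 2.60% against 1.45% (a difference of -1.16 percentage points, -2.50 to -0.0904) and 10.0% against 5.97% (-4.07 points, -7.74 to -0.754). Median depths were close, at 3458 and 3494 UMIs for CD4-only and 3848 and 3941 for CD8-only barcodes. B barcodes, which should lack the transcript, held 1 and 0 Ifng UMIs at median depths of 3564 and 3424 UMIs, and myeloid barcodes held 1 in each library at 7501 and 8596.

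The makeup of the T-cell gates differed between the libraries, and its part in the Ifng values was read only as far as the next values go. Ccr7 is a chemokine receptor that naive and central memory T cells use to enter lymph nodes. The share of CD8-only barcodes with a Ccr7 UMI was 31.2% in the control and 51.1% in the CD4-Cre library (15.0% and 24.7% after thinning), and that of CD4-only barcodes was 59.5% and 66.9%. In a comparison added after the data were seen, barcodes with Ccr7 were left out. Ifng was then at 136 and 113 CPM in CD8-only barcodes (282 and 312 barcodes), a log2 ratio of -0.27 (-0.58 to 0.04), and at 80.0 and 52.8 CPM in CD4-only barcodes (359 and 665 barcodes), a ratio of -0.60 (-0.97 to -0.23). The CD4-only difference was thus still larger than counting error without these barcodes, and the CD8-only difference was not. Without the top 5 barcodes of each library as well, the CD4-only ratio was -0.46 (-0.93 to 0.01). B-cell markers summed to 2334 and 1027 CPM in CD4-only barcodes (5 of 5 detected in both libraries) and to 593 and 2282 in CD8-only barcodes (3 of 5), control first. Myeloid markers summed to 1311 and 713 CPM in CD4-only barcodes (5 of 5) and to 413 and 1216 in CD8-only barcodes (5 and 4 of 5). The sums were lower in the CD4-Cre library in the first gate and higher in the second, while Ifng was lower in both. Their part in the Ifng ratios was not tested.

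NK barcodes had the highest Ifng level of the 6 gates and no difference beyond counting error. They held 171 CPM in the control (111 UMIs in 62 of 167 barcodes) and 153 in the CD4-Cre library (135 UMIs in 78 of 212), a log2 ratio of -0.16 (-0.53 to 0.22). Their thinned shares were 16.9% and 11.4% (-5.49 points, -12.9 to 1.52). Next in order were CD8-only barcodes, then Trdc+ barcodes at 73.3 and 52.2 CPM (86 and 89 UMIs; ratio -0.49, -0.93 to -0.04), then CD4-only barcodes; ILC2 barcodes held none. The order was the same in both libraries, and the counting intervals of CD8-only and Trdc+ barcodes overlapped in each. Within the Trdc+ gate, barcodes with Ncr1 were at 79.3 and 68.9 CPM (-0.20, -0.69 to 0.29). Those without Ncr1 were at 59.3 and 12.0 CPM, but on 21 UMIs in 12 barcodes and 6 UMIs in 5 barcodes. Their ratio was -2.30 (-3.90 to -0.95).

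In the lymph node Ifng was nearly absent from the counts. All listed barcodes held 8 UMIs in the control and 46 in the CD4-Cre library, and kept barcodes 8 and 23. Barcodes with over 10% mitochondrial UMIs, which were dropped, made up 1.01% and 9.39% of these libraries. CD4-only barcodes held 7 UMIs in 4 of 1263 control barcodes and 10 UMIs in 7 of 2669 CD4-Cre barcodes. CD8-only barcodes held 0 and 7 UMIs, and the Trdc+ gate held none. No ratio was read from these counts.

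Of all Ifng UMIs in kept pancreas barcodes (683 and 809), CD8-only barcodes held 26.8% and 26.7%, CD4-only barcodes 20.9% and 21.5%, and NK barcodes 16.3% and 16.7%. The split by source was close between libraries, although CD4-only barcodes were 886 of 4023 kept barcodes in one and 2008 of 6255 in the other. A further 11.9% and 17.2% lay in CD3+ barcodes in which neither Cd4 nor Cd8 was captured. One such CD4-Cre barcode alone held 46 Ifng UMIs, and the ratio of this class was 0.36 with the top 5 barcodes and 0.03 without them. Barcodes with both Cd4 and Cd8 held 42 Ifng UMIs in 57 control and 27 in 130 CD4-Cre barcodes (-1.58, -2.33 to -0.85).

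**Figure D2:**
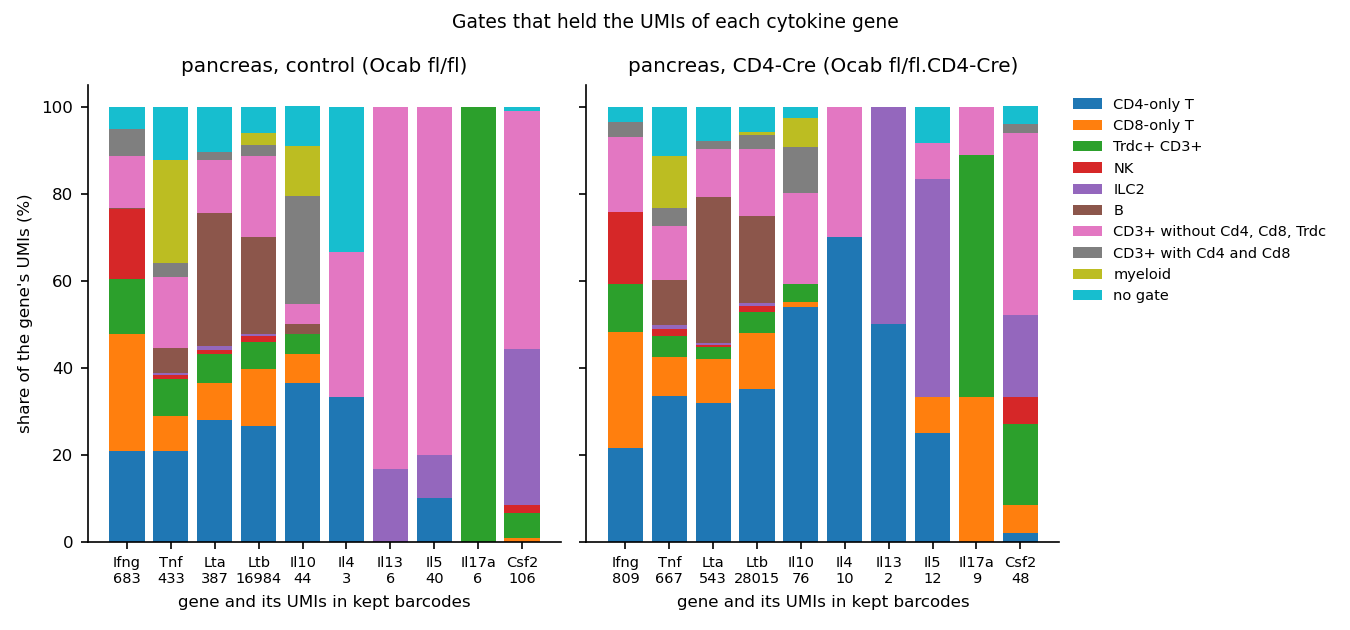
Share (percent) of each gene's UMIs by class of barcode in the 2 pancreas libraries, as stacked bars with the UMI totals written at the bars. Ifng bars are mostly T and NK barcodes, Lta and Ltb bars hold a large B part (30.7% and 33.5% of Lta, control first), and the Il5 and Il17a bars rest on 40 UMIs or fewer.

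The Ifng-positive T barcodes of the pancreas more often held several effector genes in both libraries; whether these contrasts differed between genotypes was not tested. In the control library, thinned shares with Nkg7, a granule gene of cytotoxic cells, were 30 of 60 Ifng-positive and 8.51% of 823 Ifng-negative CD4-only barcodes. In the CD4-Cre library they were 54.4% of 90 and 7.06% of 1911. The inhibitory receptor gene Pdcd1 followed the same order, at 21.7% against 3.16% and at 28.9% against 3.66%. Ccr7 went the other way, in 3 of 60 against 31.8% of control and 7.78% against 32.8% of CD4-Cre barcodes. Tbx21, the type 1 helper factor T-bet, was in 2 of 60 against 1.82% of control and in 15.6% against 1.05% of CD4-Cre barcodes. Gzmb, the protease granzyme B, was in 0 of 60 against 0.365% and in 2 of 90 against 0.471%. Depth differed slightly between these sets, with medians of 3862 and 3445 UMIs in the control library before thinning. In CD8-only barcodes Ccl5, a chemokine of effector and memory cells, was in 92.2% of Ifng-positive and 58.2% of Ifng-negative control barcodes, and in 85.8% and 34.7% in the CD4-Cre library.

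**Figure D3:**
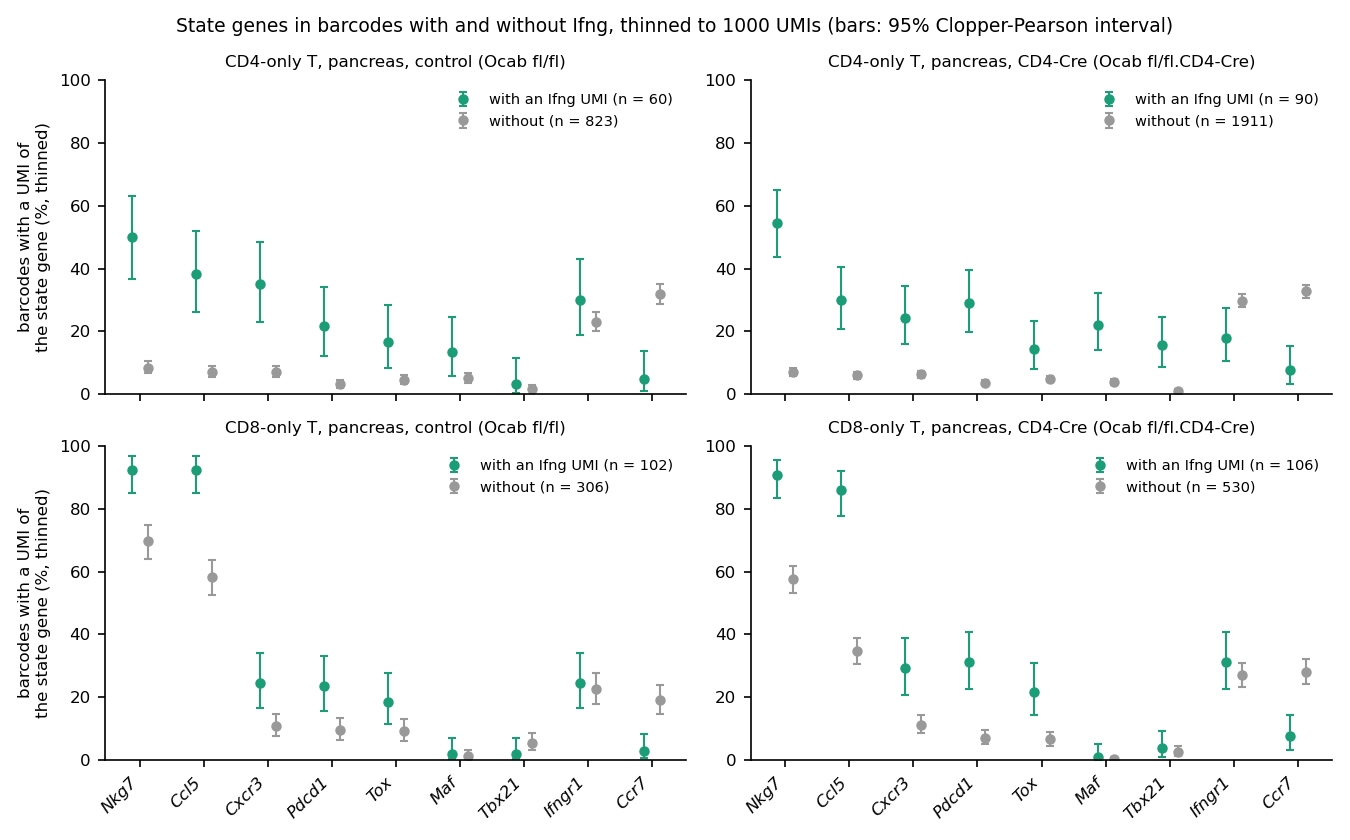
Share of barcodes (percent, after thinning to 1000 UMIs) with a UMI of each state gene among Ifng-positive and Ifng-negative CD4-only and CD8-only barcodes of both pancreas libraries. Nkg7, Ccl5 and Pdcd1 lie higher among Ifng-positive barcodes and Ccr7 lower, in both libraries.

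By summed counts Tnf was not lower in the CD4-Cre library in the CD4-only and CD8-only gates of the pancreas. CD4-only barcodes held 25.7 CPM in the control (90 UMIs in 62 barcodes) and 28.5 in the CD4-Cre library (223 UMIs in 139), a log2 ratio of 0.15 (-0.21 to 0.52). CD8-only barcodes held 18.5 and 18.9 CPM, a ratio of 0.03. Both differences were within counting error. Thinned shares of CD8-only barcodes were 2.45% and 1.26% (-1.19 points, -3.29 to 0.448). The sign of the ratio turned in CD4-only barcodes, to -0.28, when each gate needed 2 UMIs of its markers. In CD8-only barcodes it turned to -0.34 with equal weight for each barcode. Barcodes without Ccr7 gave 0.18 (-0.28 to 0.64) in CD4-only and 0.29 (-0.42 to 1.01) in CD8-only barcodes. The Trdc+ gate was at 31.5 and 18.8 CPM (37 and 32 UMIs; -0.75, -1.48 to -0.02), although its thinned shares were 2.56% and 2.68%. NK barcodes held 4 and 11 Tnf UMIs (6.16 and 12.5 CPM), and in both libraries their level was below that of CD4-only barcodes without overlap of the intervals.

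Pancreas B barcodes held more Tnf in the CD4-Cre library, at 13.7 CPM (70 UMIs in 56 of 1222 barcodes) against 6.74 (25 UMIs in 24 of 853). The log2 ratio was 1.02 (0.35 to 1.74), and 1.10 without the 5 barcodes with most UMIs. The share of B barcodes with a Tnf UMI was 2.81% in the control and 4.58% in the CD4-Cre library without thinning, but 0.589% and 0.822% after it (0.233 points, -0.635 to 0.996). At 1000 UMIs per barcode the difference was not detectable. The ratio lay close to 2-fold and fell short of it under many settings. It was 0.97 with TMM library sizes, with DESeq2 size factors and with a library size that leaves out receptor, immunoglobulin, mitochondrial and ribosomal genes, 0.98 with gates of 2 UMIs, 0.92 over all listed barcodes, 0.88 with more doublets removed, 0.84 without exclusion of other lineages, 0.81 with equal weight for each barcode and 0.50 with a pseudocount of 10 CPM. Myeloid barcodes, another source of Tnf, were at 33.0 and 25.6 CPM (103 and 80 UMIs).

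In lymph node CD4-only barcodes Tnf was lower in the CD4-Cre library. It stood at 38.5 CPM in the control (242 UMIs in 140 of 1263 barcodes) and at 25.9 in the CD4-Cre library (314 UMIs in 236 of 2669), a log2 ratio of -0.57 (-0.82 to -0.32). The median of all genes tested there was -0.08. A part of that difference lay in few barcodes: one control barcode held 21 Tnf UMIs, the top 5 held 27.7% of the control UMIs and 13.7% of the CD4-Cre UMIs, and without them the ratio was -0.32 (-0.60 to -0.04). Thinned shares were 3.25% and 2.18% (-1.07 points, -2.30 to -0.0166). In CD4-only barcodes without Ccr7, which were 169 of the control and 355 of the CD4-Cre gate, Tnf was at 84.0 CPM (63 UMIs in 26 barcodes) and 49.9 (68 UMIs in 41), a ratio of -0.75 (-1.27 to -0.23). That ratio rested on few barcodes too, and was -0.22 (-0.95 to 0.53) without the top 5. CD8-only barcodes were at 10.2 and 11.1 CPM (0.11), and those without Ccr7 held 8 and 11 UMIs, too few for a ratio to be read.

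Tnf-positive CD4-only barcodes of the lymph node more often held Nr4a1, a gene switched on by antigen-receptor signals. It was in 8.57% of positive and 1.87% of negative control barcodes after thinning, and in 8.90% and 1.53% of CD4-Cre barcodes. Pdcd1 was in 9.29% and 2.14%, and in 8.05% and 2.76%. The contrast lay in the same direction in both libraries.

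**Figure D4:**
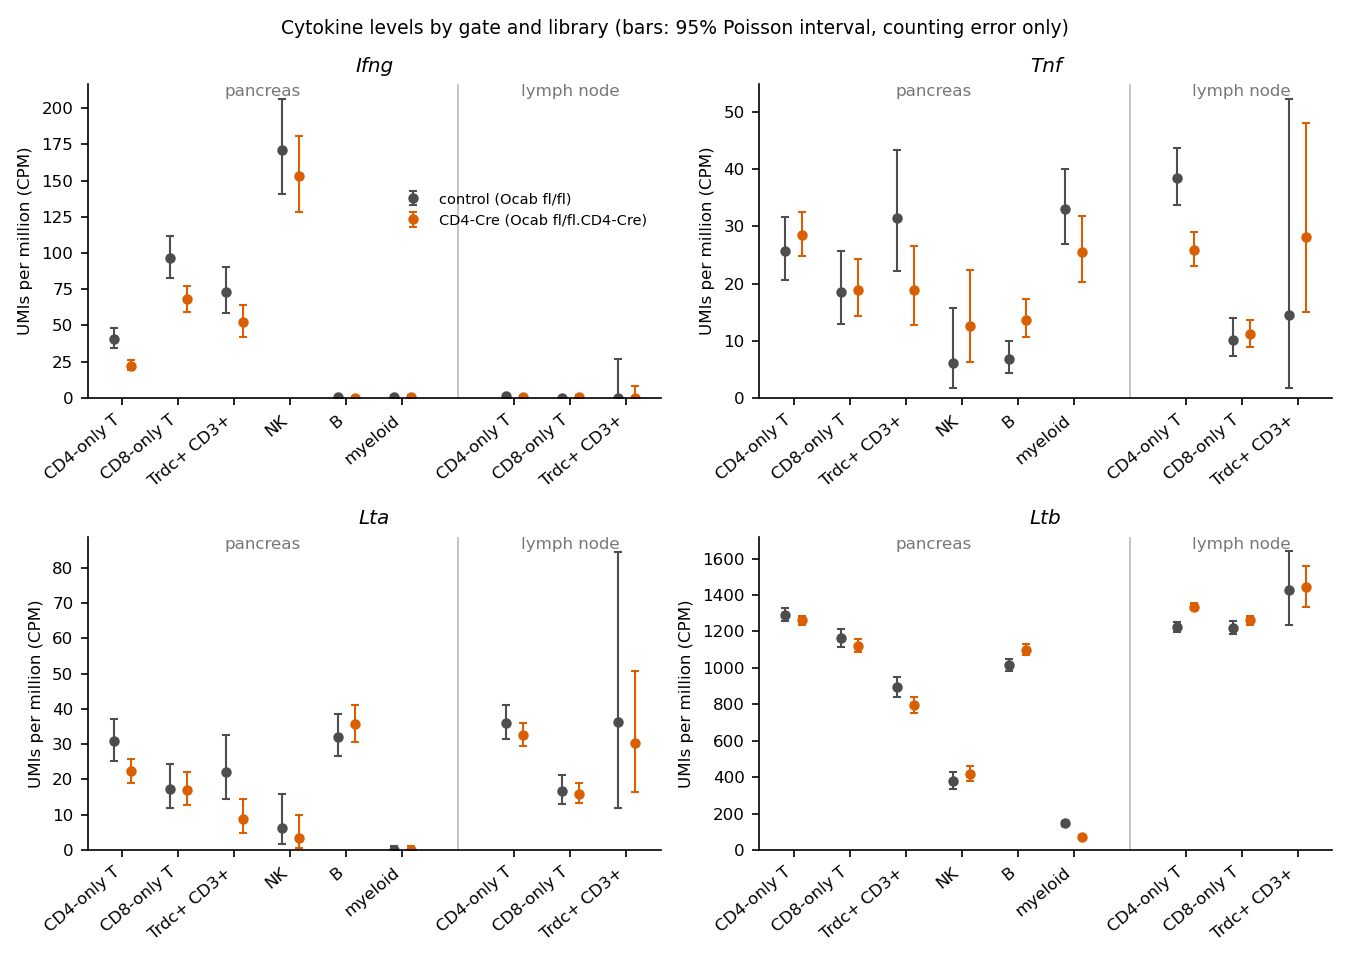
Level (CPM) of the members with most UMIs in the gates of each tissue, control and CD4-Cre libraries side by side, with exact Poisson 95% intervals for counting error. Ifng is highest in NK barcodes of the pancreas (171 and 153 CPM) and near 0 in the lymph node, while Ltb lies between 797 and 1444 CPM in all T-cell and B gates shown.

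Lta differed less. In pancreas CD4-only barcodes it was at 30.8 CPM in the control (108 UMIs in 65 barcodes) and at 22.3 in the CD4-Cre library (174 UMIs in 129), a log2 ratio of -0.47 (-0.83 to -0.11). One control barcode held 22 of the UMIs, and the ratio without the top 5 of each library was -0.14. When each gate needed 2 UMIs of its markers the ratio was -1.16, past 2-fold and outside the counting interval. The thinned shares were 2.15% and 2.25%, so the share of Lta-positive barcodes did not follow the sums. CD8-only barcodes were at 17.4 and 17.0 CPM. B barcodes were at 32.1 and 35.6 (0.15), with an interval that overlapped that of CD4-only barcodes in the control library and lay above it in the CD4-Cre library (30.6 to 41.2 against 19.1 to 25.8). NK barcodes held 4 and 3 Lta UMIs. Myeloid barcodes held no Lta UMI in either pancreas library. In the lymph node Lta was at 36.0 and 32.7 CPM in CD4-only (-0.14) and at 16.7 and 15.9 in CD8-only barcodes (-0.07). Among lymph node CD4-only barcodes without Ccr7 it was at 85.3 (64 UMIs) and 50.6 CPM (69 UMIs), a ratio of -0.75 (-1.26 to -0.24), and of -0.21 (-0.90 to 0.50) without the top 5.

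In the Trdc+ gate of the pancreas Lta passed 2-fold. It was at 22.1 CPM (26 UMIs in 15 barcodes) in the control and at 8.80 (15 UMIs in 14) in the CD4-Cre library. The log2 ratio was -1.33 (-2.35 to -0.36), and -0.70 (-2.18 to 0.75) without the top 5. The difference lay in barcodes without Ncr1, at 56.5 CPM (20 UMIs in 10 of 90 barcodes) and 8.02 (4 UMIs in 4 of 112), a ratio of -2.82 (-4.83 to -1.24). With Ncr1 the counts were 6 and 11 UMIs. Defining genes of gamma-delta cells were lower as well in the barcodes without Ncr1: Trdv4 at 508 and 244 CPM and Cd163l1 at 446 and 279. Their B-cell markers summed to 249 and 3102 CPM, with 3 of 5 detected in each library. Fewer cells of a kind and less RNA per cell cannot be told apart in such sums, and the part of these markers in the Lta ratio was not tested.

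Ltb was counted in most T barcodes, and its level differed little between genotypes in the CD4-only and CD8-only gates. Pancreas CD4-only barcodes held 1293 and 1262 CPM (-0.04), with a UMI in 95.8% and 94.8% of them, and CD8-only barcodes 1163 and 1122 (-0.05). NK barcodes held 379 and 419 CPM, below every T-cell gate. B barcodes were at 1017 and 1099.8 CPM (0.11, 0.05 to 0.17) and ILC2 barcodes at 1482 and 1669.9. The Trdc+ gate was at 894 and 797 (-0.16, -0.28 to -0.05), with a UMI in 79.6% and 82.6% of its barcodes. From highest to lowest the order was ILC2, CD4-only, CD8-only, B, Trdc+ and NK in both libraries. Intervals of ILC2 barcodes overlapped those of CD4-only and of CD8-only barcodes in the control library, and intervals overlapped between CD8-only and B barcodes in the CD4-Cre library. In the lymph node, CD4-only barcodes held 1225 and 1336 CPM (0.13, 0.09 to 0.17), CD8-only 1221 and 1262 (0.05) and Trdc+ 1427 and 1444 (0.02). The scaling bears on these small ratios, since the medians of all genes there were -0.08, -0.11 and -0.10. Under TMM library sizes, which shift all lymph node ratios by 0.09, 0.12 and 0.26 in these gates, the Ltb ratios were 0.21, 0.17 and 0.28. Myeloid pancreas barcodes held 148 and 71.1 CPM of Ltb (-1.06, -1.29 to -0.82), with a UMI in 32.2% and 22.5%.

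Il10 was carried by few T barcodes of the pancreas. CD4-only barcodes held 4.57 CPM (16 UMIs in 10 barcodes) in the control and 5.24 (41 UMIs in 18) in the CD4-Cre library, a log2 ratio of 0.20 (-0.67 to 1.13), and the 5 barcodes with most held 68.8% and 56.1%. The interval allows a change of over 2-fold upward and of less downward. Barcodes with both Cd4 and Cd8 held 11 UMIs in 4 barcodes and 8 UMIs in 1. Myeloid barcodes held 5 in each library, and lymph node CD4-only barcodes 3 and 1. Of the Il10-positive CD4-only barcodes, 3 of 10 in the control and 9 of 18 in the CD4-Cre library also held Ifng. Foxp3, the regulatory T-cell factor, was in 70.0% and 44.4% of them without thinning, against 6.19% and 5.75% of Il10-negative barcodes. Maf, a factor that drives Il10, was in 80.0% and 77.8%, against 13.6% and 10.6%. The Il10-positive barcodes were of similar or greater depth, at medians of 3092 and 4633 UMIs against 3464 and 3487.

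The type 2 genes were rare, and most Il4 UMIs came from the lymph node, with 18 and 29 in its kept barcodes against 3 and 10 in the pancreas. Lymph node CD4-only barcodes held 11 Il4 UMIs in 8 control barcodes and 25 in 15 CD4-Cre barcodes, a log2 ratio of 0.24 (-0.84 to 1.41). Pancreas CD4-only barcodes held 1 and 7. After thinning, Maf was in 7 of the 15 Il4-positive CD4-Cre barcodes against 2.08% of the others, Pdcd1 in 6 against 3.02%, and Cxcr5, the receptor that guides T cells into B-cell follicles, in 3 against 0.680%. These are genes of follicular helper cells. Their shares in the 8 Il4-positive control barcodes are not given here, so the trait is not called particular to either library.

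In the control pancreas, most Il5 and Il13 UMIs lay in barcodes that held the ILC2 genes Gata3 and Il1rl1 (the IL-33 receptor). The ILC2 gate, of 14 and 29 barcodes, held 4 Il5 UMIs in 3 barcodes and 6 in 3, and 1 Il13 UMI in each library. In each library 2 of the 3 Il5-positive barcodes of this gate held a Trbc UMI, and 0 held Trac. In the control library 32 Il5 UMIs, 26 of them in one barcode, lay in 3 barcodes with a CD3 UMI but neither Cd4 nor Cd8. All 3 held Gata3 and Il1rl1 and none held Trac, but 2 of the 3 held a Trbc UMI, and their median was 6 CD3 UMIs, so markers of both ILC2 and T cells were present. The same class of the CD4-Cre library held 1 Il5 UMI, a log2 ratio of -5.42 (-10.77 to -2.84), and without the top 5 barcodes neither library held any. This class held 5 Il13 UMIs in the control and 0 in the CD4-Cre library. The order of the Il13 counts turned with the barcode filter: kept pancreas barcodes held 6 and 2 UMIs in all, but all listed barcodes held 6 and 14. Lymph node libraries held 0 Il5 UMIs, and 0 and 1 of Il13.

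Il17a was counted 6 times in the control and 9 times in the CD4-Cre pancreas library, and never in a kept lymph node barcode. In the Trdc+ gate it was in 2 control barcodes (6 UMIs) and in 3 CD4-Cre barcodes (5 UMIs). All 5 lacked Ncr1 and held Tnf, and none held Ifng. Single barcodes of the CD8-only class (3 UMIs) and of the CD3+ class without Cd4 or Cd8 (1 UMI) held the rest in the CD4-Cre library. CD4-only barcodes held none, and 0 of 886 in the control and 0 of 2008 in the CD4-Cre library allow a share of such cells with a UMI of up to 0.339% and 0.149%, by counting error alone.

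Csf2 in the pancreas lay mostly in ILC2 barcodes and in CD3+ barcodes without Cd4 or Cd8. The ILC2 gate held 38 UMIs in 6 of 14 control barcodes (626 CPM) and 9 in 7 of 29 CD4-Cre barcodes (78.3 CPM), a log2 ratio of -3.00 (-4.23 to -1.93). One control barcode held 29 of the 38, and the ratio without the top 5 of each library was -0.29, on 1 and 2 UMIs. The share of ILC2 barcodes with a Csf2 UMI was 6 of 14 and 7 of 29 before thinning. After thinning it was 5 of 13 and 2 of 29 (-31.6 points, -58.1 to -5.92). Thinning keeps a Csf2 UMI more often in barcodes that held more of them, so this share is not separate from the sums. In the CD3+ class the sums were 58 UMIs in 8 barcodes and 20 in 14, with 51 of the 58 in one barcode. The ratio there was -1.95, and 1.16 without the top 5, so it turned sign with them. Every Il5-positive ILC2 barcode of the control library (3 of 3), and 2 of 3 in the CD4-Cre library, also held Csf2. Of the Csf2-positive ILC2 barcodes, 5 of 6 control and 5 of 7 CD4-Cre barcodes held a Trbc UMI. Il1rl1 was in 5 and 4 of them, and Trac in 0 of either. B-cell markers summed to 1268 and 2618 CPM in the ILC2 gate, control first. The part of such other RNA in the Csf2 values was not tested. CD4-only barcodes held 0 and 1 Csf2 UMIs.

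**Figure D5:**
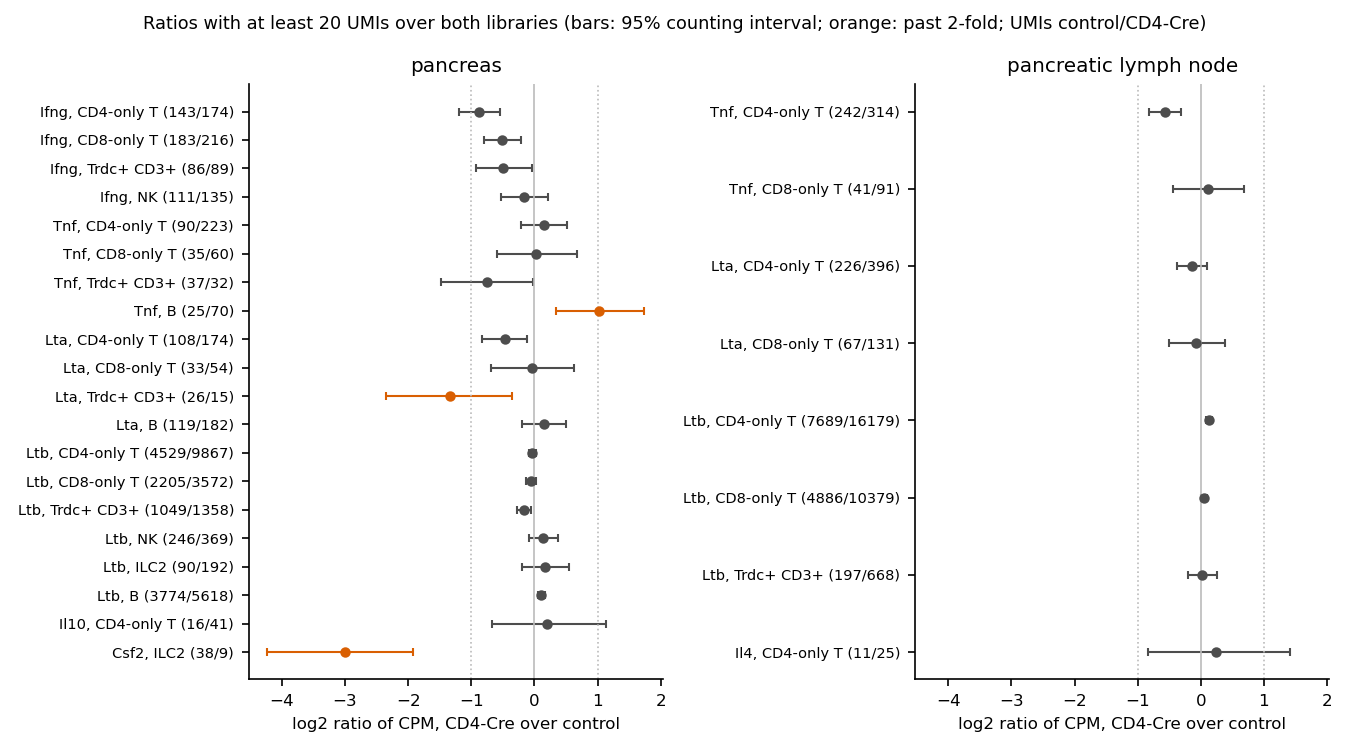
Log2 ratio (CD4-Cre to control) of CPM values, with 95% intervals for counting error, for each gene and gate with at least 20 UMIs over both libraries, 20 in the pancreas and 8 in the lymph node. The 3 orange points are past 2-fold: Tnf in B barcodes above 0, and Lta in Trdc+ and Csf2 in ILC2 barcodes below 0.

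Of the 20 gene and gate pairs of the pancreas with at least 20 UMIs over both libraries, 3 were past 2-fold: Tnf in B barcodes higher, and Lta in Trdc+ and Csf2 in ILC2 barcodes lower. Without the 5 barcodes with most UMIs of each gene the count was 1 of 18. Among all genes with at least 20 UMIs, 3.72% were past 2-fold in CD4-only barcodes, 5.16% in CD8-only, 4.26% in Trdc+, 4.71% in NK, 10.8% in ILC2 and 3.28% in B barcodes. By gate, the members past 2-fold were 0 of 5 in CD4-only, 0 of 4 in CD8-only and 1 of 4 in Trdc+ barcodes. They were 0 of 2 in NK, 1 of 2 in ILC2 and 1 of 3 in B barcodes. With so few genes in each gate, no excess over all genes was read. In the directions taken, 2.16% of genes were higher in B, 2.24% lower in Trdc+ and 3.09% lower in ILC2 barcodes. None of the 8 pairs of the lymph node was past 2-fold, where 2.59%, 2.64% and 9.77% of genes were in the 3 gates. The members' median log2 ratio was -0.04 in pancreas CD4-only barcodes (5 genes) and -0.04 in CD8-only barcodes (4 genes), against 0.03 and -0.01 for all genes. In Trdc+ barcodes all 4 genes read (Ifng, Tnf, Lta and Ltb) were below 0, against 50.6% of all genes, with a median of -0.62 against -0.01. Without the top 5 barcodes of each gene they were at -0.43, -0.47, -0.70 and -0.11, and each interval then included 0. Thinned shares there were lower for Ifng (7.26% and 3.01%) and Lta (2.56% and 1.67%), control first. They were not lower for Tnf (2.56% and 2.68%) or Ltb (47.9% and 50.8%).

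Some pairs of members were found together in a barcode more often than the gate's share, and others were not. In pancreas CD4-only barcodes 15 of 60 Ifng-positive control barcodes (25.0%) also held Tnf, against 62 of all 886 in the gate, and 19 of 90 (21.1%) against 6.92% in the CD4-Cre library. In CD8-only barcodes 12 of 29 and 14 of 43 Tnf-positive barcodes held Ifng. In lymph node CD4-only barcodes 28 of 140 Tnf-positive control barcodes held Lta, against 12.6% of the gate, and 39 of 236 (16.5%) against 10.8% in the CD4-Cre library. In pancreas CD4-only barcodes of the CD4-Cre library, by contrast, 7.19% of Tnf-positive barcodes held Lta, against 6.42% of the gate. In the Trdc+ gate 5.66% of Ifng-positive control barcodes held Tnf, against 9.36% of the gate, and 7.02% against 7.69% in the CD4-Cre library. Positive barcodes were deeper than their gates in these sets, for example at 3862 against 3458 UMIs for Ifng in control CD4-only barcodes, and the part of depth was not tested.

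Over the 12 pancreas points (6 gates in 2 libraries), the genes most like Ifng in log2 level were Ccl4, a chemokine of activated T and NK cells (Pearson r 0.993), and Fasl, the death ligand (0.987). For Ltb they were Map3k14, the kinase NIK of the pathway below the lymphotoxin beta receptor (0.978), and the ribosomal protein gene Rps15 (0.966). For Lta they were Xpo6 (0.931) and Ifngr2 (0.924), and for Tnf Irgm2 (0.913) and Helz (0.912). These are descriptions over points that share libraries and depth. The other 6 members had under 100 UMIs in the 6 gates and were not read.

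Other genes of the pathway were read in the main T-cell gates by 4 lists, chosen with earlier results of these data known. Of 16 other cytokines tested in pancreas CD4-only barcodes, 14 were below 0, against 46.3% of all genes there, with a median log2 ratio of -0.38 against 0.03. Past 2-fold was 1 of the 16, against 3.72% of all genes: Areg, the growth factor amphiregulin, at 14.3 and 3.45 CPM (-2.05). Ccl4 was at 116 and 69.7 CPM (-0.74). Its likeness to Ifng was read over points that include these levels, so this ratio is no separate support for that of Ifng. In CD8-only barcodes the median of 13 was -0.02, and 2 were past 2-fold, against 5.16% of all genes: Tnfsf10 (the death ligand TRAIL; -1.18) and Fasl (-1.02). Ccl3 stood the other way at 0.96 and Ccl5 at -0.79. In lymph node CD4-only barcodes 4 of 12 were lower past 2-fold, against 1.84% of all genes. They were Ccl5 (-1.55, on 158 and 104 UMIs) and Tnfsf14, the cytokine LIGHT (-1.55, on 47 and 31). The others were Il2, the T-cell growth factor (-1.18, on 34 and 29), and Fasl (-1.05, on 84 and 78). Tnf was lower in the same gate, in part through its top 5 barcodes. The ratios of these list genes were not read without such barcodes. In CD8-only barcodes of the lymph node 1 of 12 was past 2-fold, against 2.64% of all genes: Cd40lg (-1.04).

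Receptor and transcription factor genes gave few ratios past 2-fold. The share of all genes past 2-fold, beside which the next counts stand, was 3.72% in CD4-only and 5.16% in CD8-only barcodes of the pancreas, and 2.59% and 2.64% in those of the lymph node. Of 12 receptor genes tested in pancreas CD4-only barcodes 2 were lower past 2-fold, Csf2rb (9.14 and 2.05 CPM) and Csf2ra (18.3 and 8.70), chains of the GM-CSF receptor that myeloid cells carry, beside the lower myeloid markers given above. In CD8-only barcodes, where those markers were higher, Csf2rb was higher, at 1.58 and 9.11 CPM on 3 and 29 UMIs, and was the 1 of 11 past 2-fold. The part of myeloid RNA in these receptor ratios was not tested. Of 10 receptors none passed in either T-cell gate of the lymph node. Among transcription factors of cytokine genes, 0 of 19 passed in pancreas CD4-only barcodes, and 1 of 19 in CD8-only barcodes, Maf (-1.33). In lymph node CD4-only barcodes 1 of 20 did, Irf4, a factor induced by antigen-receptor signals, at 14.0 and 6.11 CPM (-1.20, -1.66 to -0.73), and in CD8-only barcodes 0 of 17. Of 10 brakes on cytokine mRNA and signalling, 0 passed in CD4-only barcodes of either tissue, where Cish, a feedback inhibitor of cytokine receptors, was at -0.75 in the pancreas. In pancreas CD8-only barcodes Cish was the 1 of 10 that passed (-1.33), and in those of the lymph node 0 of 9 did.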

How the data were processed

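RNA was counted with a 5′ single-cell kit (10X Genomics) in 4 mouse libraries, 1 per group. The deposited values are counts: whole UMIs per feature and barcode without normalization, made with Cell Ranger on mm10, per the submitters' processing notes, in matrices written by software version 3.0.0, per the file headers. Library totals are given in the report. The members and lists were chosen with earlier results of these data known.

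Barcodes with 500 or more detected genes and up to 10% mitochondrial UMIs were kept. A doublet score after Scrublet (scanpy 1.11.5; 2 simulated doublets for each barcode) set which were dropped, at a rate of 0.8% for every 1000 listed; this removed 75 to 388 barcodes a library. Gates needed 1 UMI of each marker group: CD3 genes with Cd4 or Cd8a/Cd8b1 but not both and no Trdc; Trdc with CD3; Ncr1 without CD3 (NK); Gata3 with 2 of 7 genes and without CD3 (ILC2); Cd79a with Ms4a1 or another B-cell gene (B). T, NK and ILC2 gates excluded B-cell genes such as Ms4a1, and Csf1r. Some marker genes are not reported here. Myeloid barcodes held Csf1r or 3 Lyz2 UMIs.

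UMIs were summed per gate and divided by the gate's total (CPM), with exact Poisson intervals; ratios had exact conditional binomial intervals, and differences in share had Newcombe intervals. Ratios needed 20 UMIs over both libraries, and past 2-fold was called. Shares were taken unthinned and after thinning to 1000 UMIs. For a count of 0, 3 counts set the upper limit. On simulated counts of 10191 genes (pancreas CD4-only), drawn as independent Poisson counts, 95.6% of intervals covered the true ratio. That draw holds no clumping of UMIs in barcodes and no spread between mice. It checks the computation and not the width of the intervals for the real counts. All members were named; other genes were the 2 most correlated with each member that had 100 UMIs (among genes with 200), and up to 4 per list with the largest ratio. Genotypes were compared within a tissue only. Of 19 alternatives, 16 were planned and 3 added after seeing the data; edgeR 4.0.16 (TMM) and DESeq2 1.42.0 gave scaling factors only. Gene positions came from GENCODE M21.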

Additional observations from a re-analysis of the deposited data

Results flagged for a closer look

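Ltb was also counted in kept barcodes outside the 6 gates, which the counts of genes past 2-fold by gate did not use. The log2 ratio (CD4-Cre to control) was 0.08 there in the pancreas and 0.25 in the lymph node, so the CD4-Cre level was above the control level in both sums. The classes in the pancreas sum differed, at 0.02 in CD3+ barcodes without Cd4 or Cd8 and -1.06 in myeloid barcodes.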

How the results depend on the processing

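Of 471 recomputed log2 ratios 451 moved by less than their counting interval, as did 526 of 672 levels and 47 of 56 share differences, and no ratio past 2-fold in the 6 gates changed sign. Sign turned in 21 recomputed ratios, all of values not past 2-fold, and in 18 recomputed share differences; the main share differences that turned included 0.111 for Tnf in pancreas Trdc+, -1.15 for Ltb in pancreas CD8-only and 0.301 for Il4 in lymph node CD4-only barcodes. Outside the 6 gates, the Csf2 ratio of CD3+ pancreas barcodes without Cd4 or Cd8 turned from -1.95 to 1.16 without its top 5 barcodes. The count of 3 pancreas pairs past 2-fold was 1 without the 5 barcodes with most UMIs, 1 with a pseudocount of 10 CPM, 1 with a minimum of 50 UMIs and 5 with the Trdc+ gate read without Ncr1 (added after seeing the data). It was 2, with Tnf in B barcodes no longer past 2-fold, over all listed barcodes, with more doublets removed and with TMM or DESeq2 factors. The same held with the library size that leaves out receptor, immunoglobulin, mitochondrial and ribosomal genes. With gates of 2 UMIs it was also 2, both lower, but of 18 pairs read. Under that setting Lta in pancreas CD4-only barcodes was past 2-fold, at -1.16. With equal weight for each barcode the count was 3, all lower. The lymph node count was 0 under every alternative run. Without thinning, the difference in share (CD4-Cre minus control, percentage points) was -8.26 for Ifng in pancreas CD8-only, 1.77 for Tnf in pancreas B, -1.76 for Lta in lymph node CD4-only and -0.0714 for Il4 in lymph node CD4-only barcodes. After thinning to 2000 UMIs it was -4.09 for Tnf in pancreas Trdc+, 1.41 for Tnf in pancreas B, 0.906 for Lta in lymph node CD8-only, 0.466 for Ltb in pancreas CD4-only and 4.80 for Ltb in pancreas CD8-only barcodes. Deeper thinning leaves out shallower barcodes; beyond that the cause was not tested. No paired analysis was possible because each group has 1 library. Depth limits Il13, Il17a, Il5 and Il4, for which no ratio between genotypes could be read in the 6 gates of the pancreas.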
